A study of Mus musculus with 2 samples.

Results

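Peaks of FLAG-tagged Msgn1 near 5 genes for pluripotency and progenitor factors, Sall4, Sox2, Pou5f1, Nanog and Mycn, are described here. A peak was taken when its midpoint lay within 150 kb of 1 of these genes on mm9, and 10 of the 4087 listed peaks (0.245%) met this rule. They were 5 peaks near Sall4, 3 near Mycn and 2 near Nanog, with no listed peak near Sox2 or Pou5f1. The peaks were chosen by their position in the measured list, and the genes with this list in view, so the peak numbers are a description and carry no test.

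The peaks come from chromatin immunoprecipitation followed by sequencing (ChIP-seq) of differentiating mouse embryonic stem cells, in 1 library from a pull-down with the anti-Flag M2 antibody and 1 library of input DNA made without antibody. Both came from the A2lox FMsgn1 line (strain C57BL/6 in the labels), in which doxycycline switches on FLAG-Msgn1. The cells were grown as embryoid bodies, the floating aggregates in which stem cells leave the pluripotent state, for 2 days, then received doxycycline at 1 ug/ml for 36 h. Input and FLAG samples thus share the induction, and no sample without doxycycline or without the tag was analysed here. With 1 library per group there is no replicate error, and the depth of the libraries is unknown from the peak list. The FLAG antibody recovers the induced protein, so the peaks bear on FLAG-Msgn1 in this line and not on Msgn1 made from its own gene.

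Msgn1 (mesogenin 1), which acts in the presomitic mesoderm that gives rise to the somites, belongs to the basic helix-loop-helix factors, and proteins of this class bind short E-box motifs of the form CANNTG. Pou5f1 (Oct4), Sox2 and Nanog are the core transcription factors of the pluripotent state, which cells lose as they enter a lineage. Sall4 is a zinc finger factor of stem cells that is also made in early mesoderm. Mycn is a Myc family factor that drives growth and division in progenitor cells of the embryo. Sox2 is in addition a factor of neural progenitors, which in the tail end of the embryo share an origin with the presomitic mesoderm.

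Among the 5 genes, Mycn was the one with listed peaks at its transcription start. Its promoter is therefore shown, in the RefSeq sequence of GRCm38.p6 at chr12:12941787-12942086, minus strand, from 250 bases before the start to 50 bases after it. Capitals mark each CANNTG, the motif searched. It reads the same way on both strands, so 1 search covers both.

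Mycn promoter: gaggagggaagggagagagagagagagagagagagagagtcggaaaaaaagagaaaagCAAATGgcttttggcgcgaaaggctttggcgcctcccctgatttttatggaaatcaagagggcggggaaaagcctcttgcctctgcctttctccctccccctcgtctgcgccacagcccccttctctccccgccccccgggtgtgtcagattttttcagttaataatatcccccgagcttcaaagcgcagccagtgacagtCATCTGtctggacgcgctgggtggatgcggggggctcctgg

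The window holds 2 E-boxes. The first, CAAATG, begins 192 bases before the start, and the second, CATCTG, lies in the bases after it. Of 32851 promoter windows of this length in the RefSeq table, 72.3% hold at least 1 CANNTG and 39.6% hold at least 2. CAAATG or its reverse complement CATTTG is present in 13.7% of them, and CATCTG or CAGATG in 17.2%. The windows available for genes without a peak at the start hold the motif too, with 1 for Sox2 and 1 for each of the 2 overlapping Nanog windows. The 2 Pou5f1 windows hold 1 and 2. Sall4, also without a peak at its start, has no window in the RefSeq table and was not searched. A match describes the letters in the window, and the peaks of this list, which are on mm9, were not searched for motifs.

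The peaks at the Mycn start scored below the list's median, and the strongest peak of the locus lay far from the gene. Mycn spans 12943 to 12949 kb of chromosome 12 and is read towards lower coordinates, so its start is at 12949 kb. The peak at chr12:12948408-12949039 (632 bp) has its midpoint 0.277 kb inside the gene from that start, and the authors gave it a score of 58.0. The second peak, at chr12:12949858-12950454 (597 bp), lies 1.16 kb before the start with a score of 56.3. Both lie below the list's median of 72.8, with 25.4% and 20.6% of the list scoring lower. The lowest score listed is 50.00. Gene positions were known to the nearest kb, so distances at the start carry an uncertainty of that order. The pair is separated by 0.818 kb, and whether these are separate sites or 1 broad stretch was not tested.

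The third Mycn peak, at chr12:12803511-12804485 (975 bp), had a score of 582. This was rank 15 of 4087, with 99.6% of the list scoring lower. It lies 139 kb from the gene on the downstream side, near the 150 kb limit, and 145 kb from the start. Its score was 10.0 times that of the higher of the start peaks. A score ratio does not measure a ratio of binding, and the scale of the score is not given. A weaker peak at chr12:12775929-12776522 with a score of 52.9 lies just outside the limit, 167 kb from Mycn and 27.0 kb from the strong peak. Beyond the limit on the upstream side the nearest peak was chr12:13204725-13205541, with a score of 161 at 256 kb. On the downstream side the next protein-coding gene in the GRCm38.p6 gene order is Cyria, and on the upstream side it is Ddx1. The list does not tie the distal peak to any of these genes.

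Sall4 had the densest group of peaks, and every one lay on the same side of the gene. Sall4 spans 168574 to 168593 kb of chromosome 2, and its 5 peaks lie at 12.8 to 75.8 kb beyond the end with the higher coordinate, the side on which Zfp64 is the next protein-coding gene in the GRCm38.p6 order. No listed peak lay within the gene itself or within 150 kb on the Atp9a side, where the nearest was 495 kb away (chr2:168078335-168079189, score 59.1). Beyond the limit on the Zfp64 side the nearest was 454 kb away (chr2:169046557-169047118, score 66.0). The side is given by coordinate, since no strand was used for Sall4.

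The nearest Sall4 peak, chr2:168605326-168606228 (903 bp), scored 144 at 12.8 kb from the gene. A pair of stronger peaks stood 47.4 kb farther out. The first of the pair, chr2:168653642-168654593 (952 bp), had the highest score of the locus, 249, at rank 194. The second, chr2:168656609-168657521 (913 bp), scored 200 at rank 304, and 2.02 kb separates them. The outer pair was weak: chr2:168666166-168666704 (539 bp) scored 50.6 and chr2:168668443-168669131 (689 bp) scored 52.1, with 1.74 kb between them. The 3 inner peaks thus scored 144 to 249, whereas the 2 outer ones were close to the lowest score listed.

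The 5 Sall4 peaks form 1 run of 63.8 kb in which each peak is at most 50 kb from the next. Runs of 5 or more peaks held 1.32% of all listed peaks, in 10 runs. Among these 10, the Sall4 run had the highest median score, 144, where the lowest was 52.9, and 3 of the others had a higher top score. The run depends on the first gap of 47.4 kb, which is close to the 50 kb limit. Without it the other 4 peaks would still lie within 8.64 kb of a neighbour.

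Nanog, a homeobox factor of naive pluripotent cells, had a weak peak close upstream of its start. The gene spans 122658 to 122665 kb of chromosome 6 and is read towards higher coordinates. The peak at chr6:122652254-122653129 lies 5.31 kb before the start and scored 53.4, at rank 3573, with 12.5% of the list lower. It was 876 bp wide, wider than 82.5% of the list. An enhancer a few kb before the Nanog start is known from embryonic stem cells, and whether this peak overlaps it was not tested. The other Nanog peak, chr6:122760528-122761148 (621 bp), scored 90.0 at 95.8 kb past the far end of the gene, the side on which Slc2a3 and then Foxj2 follow in the GRCm38.p6 order. Neither Nanog peak had another within 50 kb, and they are 107 kb apart. On the other side, where Dppa3 and Gdf3 follow Nanog in that order, the next peak was 366 kb from Nanog (chr6:122292054-122292580, score 53.3). Past the Slc2a3 side the next one beyond the limit was 618 kb away (chr6:123282531-123283086, score 63.3).

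**Figure D1:**
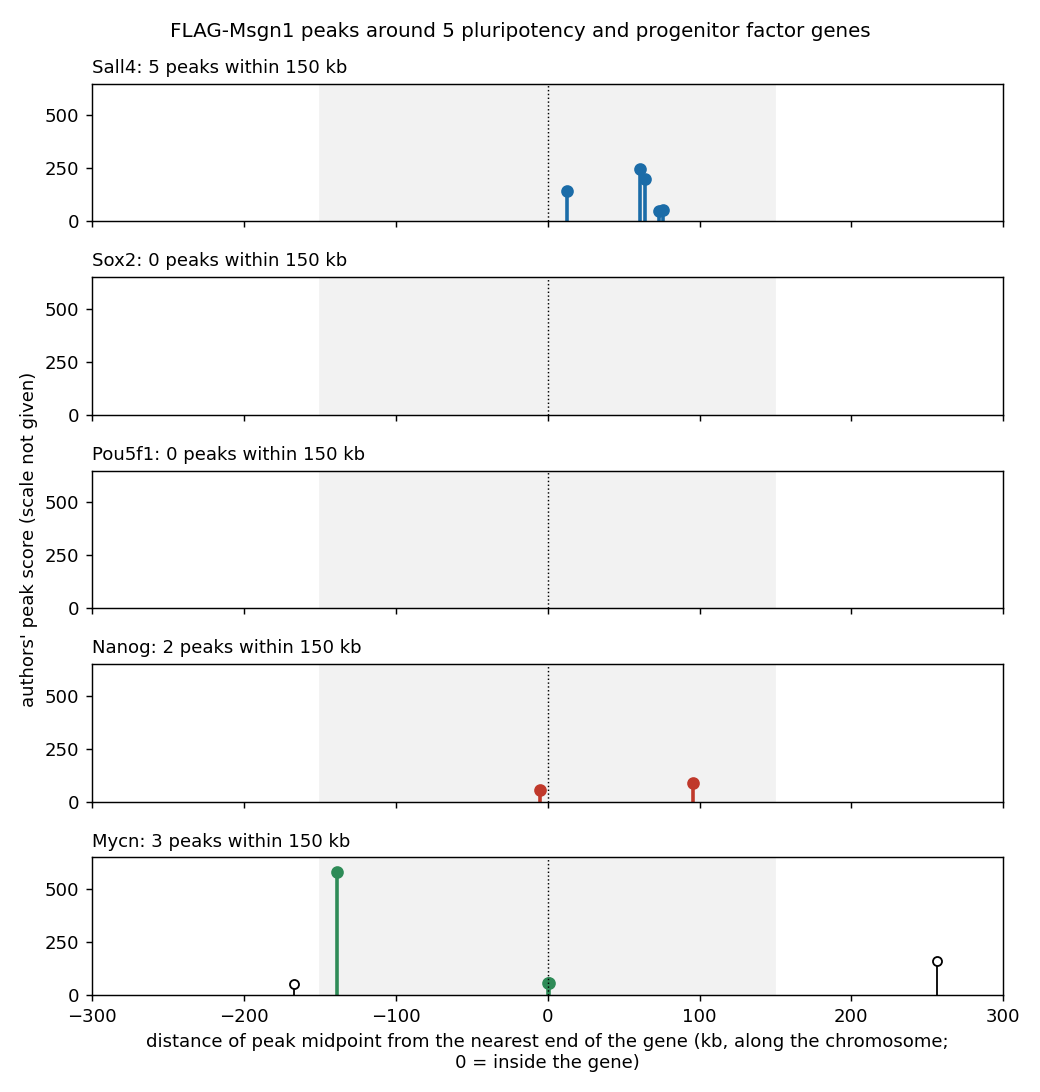
Each panel is 1 gene, with the distance of a peak's midpoint from the nearest end of the gene (kb, along the chromosome) on the horizontal axis and the authors' score on the vertical axis. Filled points are peaks within 150 kb (grey band) and open points are peaks beyond it. The Sall4 peaks lie on 1 side, the 2 weak Mycn peaks sit at the gene with the peak scoring 582 at 139 kb, and the Sox2 and Pou5f1 panels are empty to 300 kb.

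No listed peak lay near Sox2 or Pou5f1. Sox2 spans 34548 to 34551 kb of chromosome 3, and the nearest listed peaks were 1233 kb away on the lower side (chr3:33315142-33315853, score 100) and 669 kb away on the higher side (chr3:35219641-35220512, score 55.0). Sox2 thus sits in a stretch of 1904 kb without a listed peak. Pou5f1 spans 35643 to 35648 kb of chromosome 17, and its nearest peaks were 865 kb away on the lower side (chr17:34777937-34778816, score 260) and 1278 kb away on the higher side (chr17:36925759-36926352, score 59.8). The stretch without a peak around it was 2147 kb long. Of 4067 distances between neighbouring peaks, 7.30% matched or exceeded that around Sox2 in length, and 5.85% that around Pou5f1. The median distance was 278 kb. A long stretch covers more of the genome than a short one, so the percentages are shares of distances and not of genome positions. How often a gene lies in such a stretch was not tested. The list holds only places above the authors' limit, so weaker binding at these genes is not visible in it. In the GRCm38.p6 order of protein-coding genes, Sox2 lies between Dnajc19 and Atp11b, and Pou5f1 lies between H2-Q10, a gene of the major histocompatibility complex, and Tcf19.

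The numbers per gene were set against stretches of 300 kb laid end to end along each chromosome from its first listed peak. Of 8404 such stretches, 67.5% held no peak, 10.8% held at least 2, 3.43% held at least 3 and 0.416% held at least 5. The stretches searched around the 5 genes ranged from 303 kb at Sox2 to 319 kb at Sall4. Together they span 1540 kb with 6.49 peaks per Mb, against 1.62 peaks per Mb over the span of the whole list. The genes were not drawn at random from the genome, and stretches laid end to end take no account of genes, so these shares are a background and not a test.

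**Figure D2:**
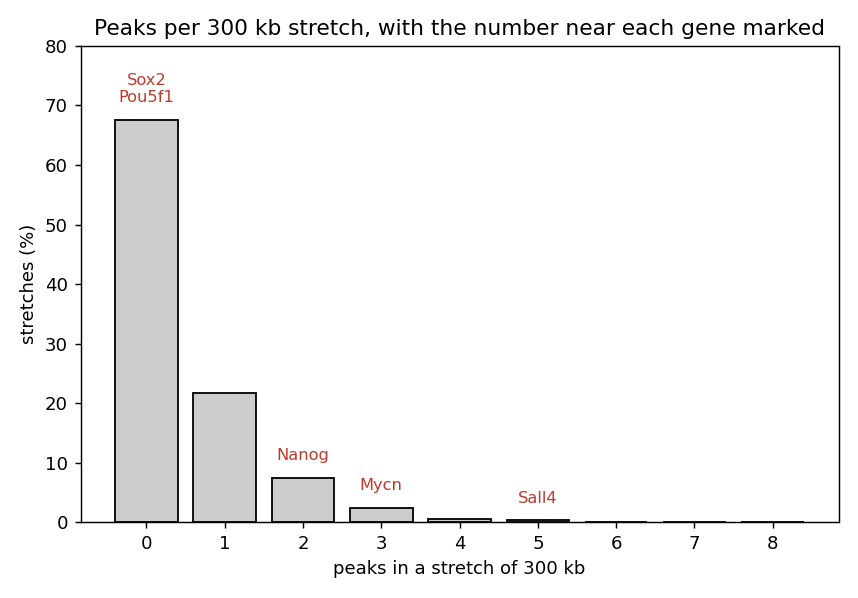
Bars show the percentage of 8404 stretches of 300 kb (vertical axis) that hold each number of listed peaks (horizontal axis), and red names mark the number of peaks within 150 kb of each gene. Sox2 and Pou5f1 fall with the 67.5% of stretches without a peak, and Sall4, with 5, at a number that 0.416% of stretches reach or pass.

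By rank of score, the 10 peaks spread over most of the list, from rank 3971 to rank 15 of 4087. Their lowest score was 50.6, their median 74.0 and their highest 582, beside a median of 72.8 for the list. Of the 10 peaks, 4 scored 100 or more (3 near Sall4 and 1 near Mycn), where 28.6% of the list did. At 200 or more there were 2, against 7.41% of the list. The Sall4 peak printed as 200 is just under that limit. In contrast, 5 of the 10 scored under 60, where 30.0% of the list did. Among 10 peaks these shares differ from those of the list by a few peaks only, and no difference is drawn from them. None of the 10 peaks scored between 58.0 and 90.0, and their median lies in that gap.

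The 4 strongest peaks were also the widest of the 10. Widths ran from 539 to 975 bp with a median of 782 bp, against 678 bp for the list, and 6 of the 10 were wider than that, where 49.9% of the list are. The 4 peaks scoring at least 100 were 903 to 975 bp wide. Of the weaker ones, the Nanog peak 5.31 kb before the start, at 876 bp, and the outermost Sall4 peak, at 689 bp, were also wider than the list's median. In the whole list the median width was 816 bp for peaks scoring at least 100 and 633 bp for the others. Score and width come from the same peak calling and are not independent measures.

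**Figure D3:**
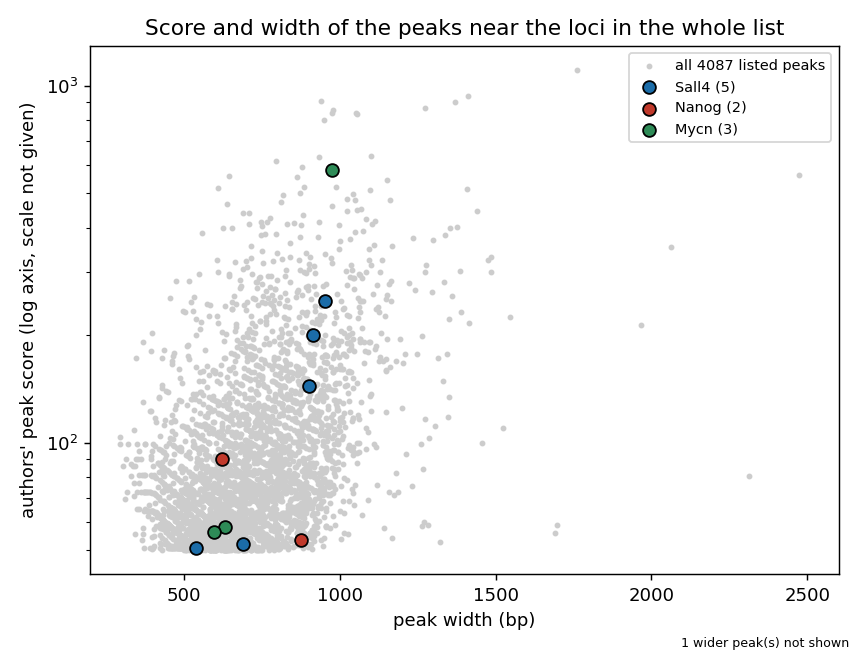
Grey points are the listed peaks by width (bp, horizontal axis) and the authors' score (log vertical axis), and coloured points are the 10 peaks near Sall4, Nanog and Mycn. The 4 strong peaks lie at widths of 903 to 975 bp, and the 5 peaks under a score of 60 lie along the lower edge of the list.

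Neighbours were common among these peaks. Another listed peak lay within 50 kb of 8 of the 10, where 30.0% of all listed peaks had one, and within 10 kb of 6 of the 10, where 11.8% of the list had one. The 6 were 4 Sall4 peaks and the 2 start peaks of Mycn. Peaks in 1 locus share their neighbours, so the 10 peaks are not independent, and the rule itself favours loci with several peaks.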

How the data were processed

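ChIP-seq was carried out on 1 FLAG and 1 input library. The authors deposited 1 peak list without a header, in which each peak has its position, a name and a score. The peak names show that MACS was used. The MACS version and settings, and how reads were aligned and filtered, are not given in the sources used. The build, mm9, and the tools CASAVA 1.4 and FastQC are taken from the submitters' processing notes. Scores are used as deposited by the authors. Their scale is not stated, and the score serves here only to rank, filter and describe peaks within this list. Starts were read as 0-based and are printed 1-based.

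Gene positions on mm9, in kb, came with the rule that defines the members. Their spans match the gene lengths of the RefSeq table of GRCm38.p6 to within 1 kb. From that table only the order of genes, the strand and promoter sequences were taken, and no position was converted. All 5 genes matched by symbol, and 4 of them have a promoter sequence there. Other pluripotency genes were planned and were not placed, since no mm9 annotation was used here.

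Distance ran from a peak's midpoint to the nearest end of the gene, and 0 meant inside it. A run was peaks at most 50 kb apart, end to start. All peaks within the limit are named, with the nearest ones beyond it. Members, lists and descriptive measures were chosen with earlier results of these data known. No test was made, since there is 1 library per group. Alternatives were other distance limits, the distance to the start, score limits and joining of close peaks. The member search was tested on simulated data and recovered the planted number at 5 of 5 loci. The tools were pandas 2.3.3 and numpy 2.4.6 in Python 3.11.15, with matplotlib 3.10.9 for figures.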

Additional observations from a re-analysis of the deposited data

How the results depend on the processing

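The number of peaks near the 5 genes was 10. It was 9 to 11 at distance limits of 100 and 250 kb, with distance measured to the start, or with peaks less than 1 kb apart joined. In the count by start, Sall4 was measured from the farther end of the gene, since no strand was used for it. The number of peaks fell to 4 at a limit of 50 kb, to 5 with scores of at least 60 only and to 4 with scores of at least 100 only. Sox2 and Pou5f1 had 0 peaks under each of these settings. The number scoring at least 100 was 4. It was 3 at a distance limit of 100 kb, where the Mycn peak scoring 582 is lost, 1 at 50 kb and 2 at a score limit of 200, and it was 4 under the other settings tried for it. The median score of 74.0 moved as well: it was 57.2 at 50 kb, 58.0 at 100 kb and at 250 kb, 90.0 with close peaks joined and 200 with scores of at least 60 only. The limits of 100 and 250 kb and the joining changed the number of peaks by 1, whereas the limit of 50 kb left 4 peaks and the score limit of 60 left 5. At 50 kb, Sall4 kept 1 peak, Nanog 1 and Mycn 2. At a score of at least 100, Sall4 had 3, Mycn 1 and Nanog 0.

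No paired analysis was possible because each group has 1 library. Depth, read counts and fold enrichment were not used here, so no interval can be given for a score, and no value separates Msgn1 binding from other differences between the 2 libraries.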
